A study of Homo sapiens with 6 samples.

Results

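Genes of the LY6/uPAR family were followed in the established colorectal cancer line HCT116 after knockdown of Matrin3, the product of MATR3, which binds RNA in the nucleus. The 8 members were LY6D, LY6E, LY6K, LYPD1, LYPD3, LYPD6B, PLAUR and CD59, matched by gene identifier among 56632 genes in each table. The family was chosen by the measured rise of LY6D in these libraries. The change of LY6D is therefore given as a description without a test. The 7 others were taken as relatives of LY6D, with earlier results of these data known. Poly(A) RNA was sequenced from 3 libraries transfected with an unrelated control siRNA (siCTRL) and 3 transfected with a pool of siRNAs against Matrin3 (siMatrin3). Both groups are parental HCT116 cells that went through the same 2 rounds of transfection, 72 hours apart according to the labels and the methods, and the labels add 48 hours after the second round. The methods instead place RNA purification later, after reseeding, and call the libraries biological triplicates. The effect of siRNA reagents apart from the loss of Matrin3 was not tested, since each group had a single reagent.

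Proteins of this family fold into finger-like loops held together by disulfide bonds, and most sit on the cell surface on a glycosylphosphatidylinositol (GPI) lipid anchor. They act as receptors, as inhibitors of complement, or as modulators of neighbouring receptors, and a run of LY6 genes forms a cluster on human chromosome 8. In epithelia, LY6D and LYPD3 are best known from keratinocytes, LY6K is a testis gene that tumours can re-express, and CD59 and LY6E are found on many cell types.

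The 6 libraries held 40808173 to 54185650 expected counts, RSEM's estimates of reads per gene. MATR3 fell from 181 ± 5.01 TPM (transcript abundance per length, brought to a common sum per library) to 106 ± 9.37 TPM (SD, n = 3 each). The knockdown was thus partial at the level of RNA, and these libraries do not measure protein. The annotation used for names also holds a second gene called MATR3, absent from the tables, that shares exons on the same strand. Epithelial markers fitted the label: 7 of 8 averaged at least 1 TPM, with VIL1 below that, and their summed level ran from 3210 to 3360 TPM in siCTRL and from 2970 to 3180 TPM in siMatrin3. Leukocyte markers summed to at most 1.25 TPM and endothelial markers to at most 0.15 TPM in any library. Of 5 fibroblast markers, only COL1A1 averaged 1 TPM or more, and COL1A2 and DCN were listed at 0 in every library. RNA came from whole cultures, in which fewer cells of a type and less RNA per cell cannot be told apart.

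The members spanned a wide range of abundance. In siCTRL, LY6E was the most abundant at 161 ± 5.29 TPM, followed by CD59 at 64.1 ± 1.49, PLAUR at 44.3 ± 3.39, LYPD6B at 10.2 ± 0.875, LYPD3 at 3.62 ± 0.516, LY6D at 3.33 ± 0.945 and LY6K at 0.977 ± 0.357 TPM (SD, n = 3). Neighbours in that order did not overlap between libraries, except that LYPD3 and LY6D did. LYPD1 was last, at 0.28, 0.14 and 0.06 TPM. The order shifted in the middle after knockdown: LY6D, at 5.92 ± 0.475 TPM, stood above LYPD3 at 3.51 ± 0.528 TPM in all 3 siMatrin3 libraries and overlapped with LYPD6B at 6.7 ± 0.376 TPM. LY6E, CD59 and PLAUR kept the first ranks. LY6E alone made up 53.6% to 57.3% of the summed TPM of the 8 members in a library, and LY6D 0.793% to 1.37% in siCTRL and 1.82% to 2.02% in siMatrin3. The summed level was 282, 290 and 290 TPM in siCTRL and 297, 314 and 324 TPM in siMatrin3.

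**Figure D1:**
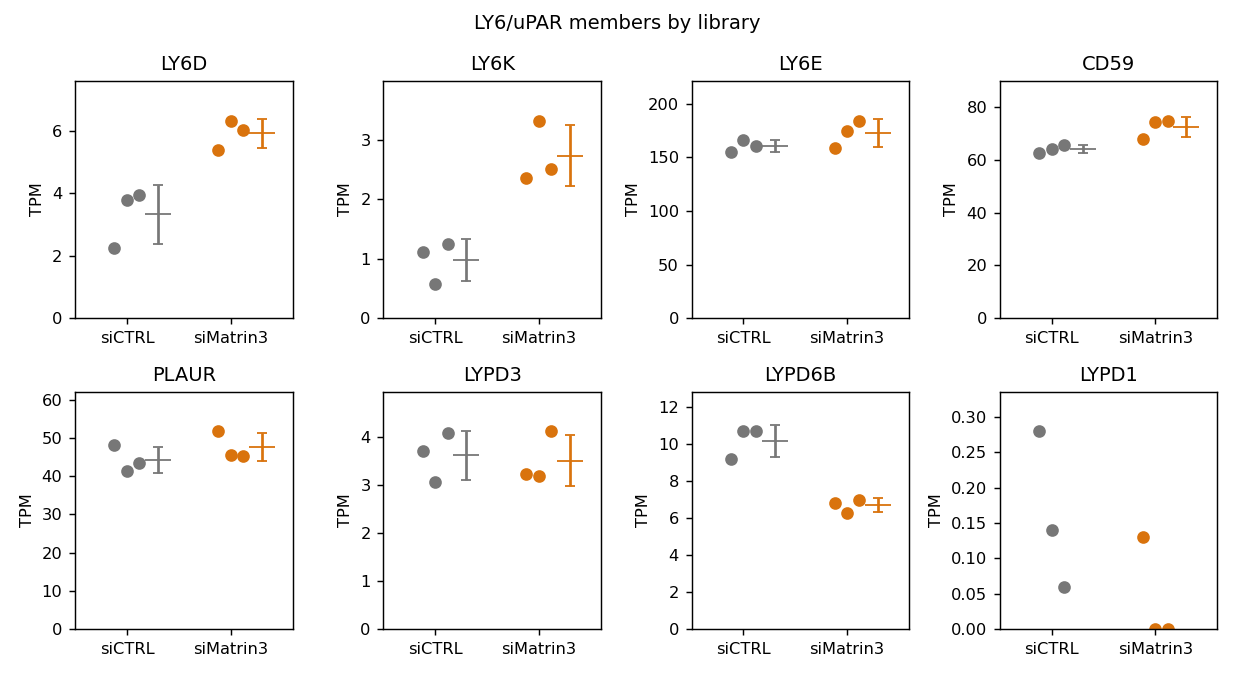
TPM of the 8 members, each panel with its own axis from 0, with siCTRL libraries as grey points, siMatrin3 libraries as orange points, and the mean and SD of each group of 3 drawn next to them (not drawn for LYPD1, which was listed at 0 in siMatrin3 replicates 2 and 3). LY6D, LY6K and CD59 lie higher and LYPD6B lower in all 3 siMatrin3 libraries, while the groups overlap for LY6E, PLAUR, LYPD3 and LYPD1.

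LY6D (ENSG00000167656) encodes a surface antigen of keratinocytes and other stratified epithelia. It stood at 2.24, 3.78 and 3.96 TPM in siCTRL replicates 1, 2 and 3, and at 5.4, 6.33 and 6.03 TPM in siMatrin3 replicates 1, 2 and 3. The groups did not overlap, and siCTRL replicate 1 was the lowest of the 6 libraries. The values rested on modest numbers of reads, from 62 expected counts in that library to 146 in siMatrin3 replicate 2. The log2 fold change was 0.82 (SE 0.205), a rise of 76.4%, and it was 0.59 without siCTRL replicate 1. Since this rise chose the family, no p-value is attached to it.

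The gene with the largest fold change among the members was LY6K (ENSG00000160886), which encodes a testis antigen that works in sperm with the related protein TEX101. LY6K rose from 1.12, 0.57 and 1.24 TPM in siCTRL to 2.36, 3.32 and 2.51 TPM in siMatrin3, with no overlap. The fold was 2.53, or 1.34 on the log2 scale with an SE of 0.21, and the adjusted p by edgeR was 0.00397. The gene remained low in absolute terms, with 37.5 to 163.2 expected counts per library, and siCTRL replicate 2 held the fewest. The call was kept in all 17 alternatives (edgeR, DESeq2 or limma adjusted p from 4.69e-11 to 0.0433). A second annotated gene on the opposite strand, LNCOC1, shares exons with LY6K and stood at 0.34 to 0.5 TPM in the 6 libraries, and whether the authors counted by strand is not given in the sources used here. TEX101 itself, named for its role after its values were seen, did not exceed 0.11 TPM in any library.

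LYPD6B (ENSG00000150556) went the other way. Its protein binds nicotinic acetylcholine receptors and modulates them. LYPD6B was at 9.18, 10.69 and 10.7 TPM in siCTRL and fell to 6.83, 6.28 and 7 TPM in siMatrin3, so the highest siMatrin3 library lay below the lowest siCTRL library. The log2 fold change, with an SE of 0.0945, was -0.56 (edgeR adjusted p = 0.00569), a change of -32.1%, and the call was kept in all 17 alternatives (adjusted p from 4.55e-06 to 0.0318 by edgeR, DESeq2 or limma).

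CD59 (ENSG00000085063) protects cells from complement by blocking the assembly of the membrane attack complex. It rose slightly, from 62.62, 64.02 and 65.59 TPM to 68, 74.56 and 74.99 TPM. The groups did not overlap, siMatrin3 replicate 1 being the lowest of its group, and the log2 fold change of 0.21 with an SE of 0.0485 passed (edgeR adjusted p = 0.02). The direction held in all 17 alternatives, where the stricter threshold was the same fit. The call did not hold in 8 of them, where the adjusted p ranged up to 0.0942. By edgeR it was 0.0542 without siCTRL replicate 1, 0.0517 without siCTRL replicate 2, 0.0709 without siMatrin3 replicate 2 and 0.0745 without siMatrin3 replicate 3. The annotation used for names also holds a second gene, absent from the tables, that shares exons with CD59 on the same strand.

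LY6E, PLAUR and LYPD3 did not pass the test. LY6E (ENSG00000160932), an interferon-inducible protein that limits the entry of some viruses, was at 155.23, 165.8 and 160.85 TPM in siCTRL and 158.93, 174.41 and 184.29 TPM in siMatrin3. Its log2 fold change of 0.13 had a 95% interval from 0.01 to 0.25 before adjustment (edgeR adjusted p = 0.162). PLAUR (ENSG00000011422), the receptor that holds urokinase at the cell surface, was at 48.07, 41.48 and 43.43 TPM and then 51.77, 45.51 and 45.36 TPM. In both groups replicate 1 was the highest for PLAUR, and its log2 fold change was 0.13 (95% interval -0.03 to 0.28, edgeR adjusted p = 0.301). LYPD3 (ENSG00000124466), a relative of PLAUR in squamous epithelium, was at 3.71, 3.06 and 4.08 TPM and then 3.22, 3.19 and 4.12 TPM, and its log2 fold change of -0.03 left room for -0.34 to 0.29 (95% interval, edgeR adjusted p = 0.935).

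LYPD1, which binds neuronal nicotinic receptors, was too low to test. It had 17, 7.8 and 1 expected counts in siCTRL and 9.6, 0 and 0 in siMatrin3, and no change was detectable at this depth. Of the 7 members other than LY6D, 6 were thus tested, and 3 were called: 2 higher and 1 lower. As the members were chosen with earlier results of these data known, this count is a description. Over all 16786 genes tested, 11.0% were called, 5.05% higher and 5.97% lower. The TPM of the groups did not overlap for 3 of these 6 members, against 25.1% of all genes tested. The median log2 fold change of the 6 was 0.13, and that of all genes tested -0.00106.

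**Figure D2:**
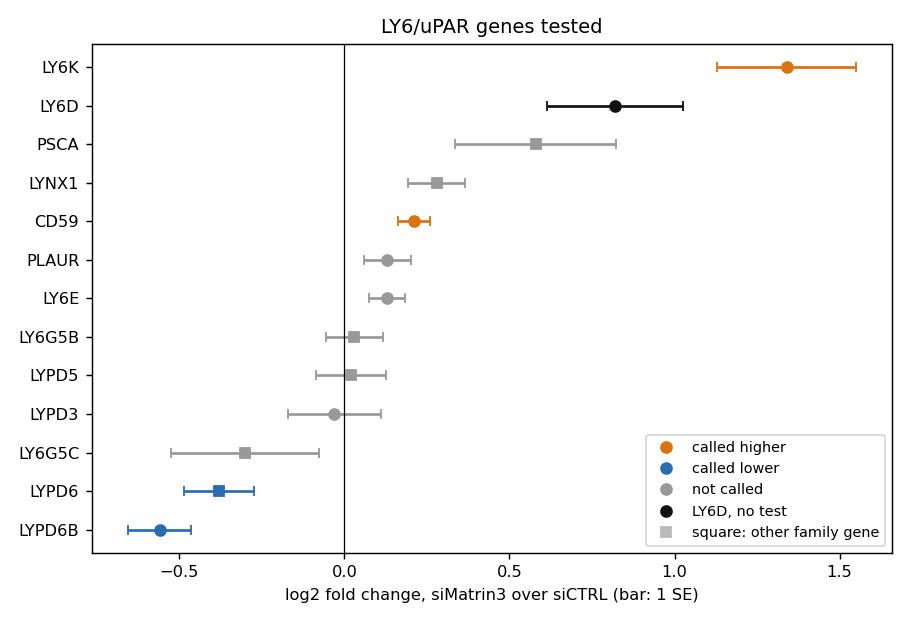
Log2 fold changes of the 7 tested members (circles) and 6 other tested LY6/uPAR genes (squares), siMatrin3 against siCTRL, with bars of 1 SE from edgeR and with genes called higher in orange, called lower in blue, not called in grey and LY6D, which chose the family, in black. LY6K lies farthest to the right at 1.34 and LYPD6B farthest to the left at -0.56.

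To see how the rest of the family behaved, 27 further human LY6/uPAR genes were listed. Of 22 found in the tables, 16 stayed under 1 TPM in every library, 5 of them listed at 0 throughout, and 6 averaged at least 1 TPM in a group and were tested. LYPD6, the closest relative of LYPD6B and its neighbour on chromosome 2, was called lower like LYPD6B. It went from 1.47, 1.54 and 1.55 TPM to 1, 1.23 and 1.21 TPM, without overlap (log2 fold change -0.38, edgeR adjusted p = 0.048). This call was marginal: 12 of 17 alternatives did not keep it, including DESeq2 (adjusted p = 0.0927) and the removal of any single library, with edgeR adjusted p from 0.0725 without siMatrin3 replicate 2 to 0.134 without siCTRL replicate 3, and 0.0314 to 0.188 over all alternatives. The direction of LYPD6 held in all 17, where the stricter threshold was the same fit.

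None of the other 5 was called. LYNX1, which restrains nicotinic receptors in neurons, was at 3.21, 2.88 and 3.18 TPM in siCTRL and 3.4, 4.41 and 4.07 TPM in siMatrin3 (log2 fold change 0.28, edgeR adjusted p = 0.0672). PSCA, a surface antigen first described in prostate, was at 1.19, 1.32 and 1.39 TPM and then 1.8, 1.59 and 2.28 TPM (log2 fold change 0.58, edgeR adjusted p = 0.159). For both the groups did not overlap in TPM although the test was not passed. LYNX1 shares exons on the same strand with a read-through gene that is absent from the tables, and PSCA overlaps JRK on the opposite strand, so their levels carry that uncertainty. LY6G5B, LY6G5C and LYPD5 overlapped between groups, at log2 fold changes of 0.03, -0.30 and 0.02, and LY6G5B shares exons with the far more abundant CSNK2B. By edgeR, 1 of these 6 genes was called, 16.7% against 11.0% of all genes tested.

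LY6D, LY6K and LY6E belong to the LY6 cluster of chromosome 8, which raised the question of how its other genes stood. Of 24 listed cluster genes and neighbours in the tables, 17 were tested. Besides LY6D, the LY6/uPAR genes among them were LY6K, PSCA, LYNX1 and LY6E, and all 4 had positive log2 fold changes, though only LY6K was called. Among the 12 tested genes outside the family, 7 had positive log2 fold changes. Over all 16786 genes tested, 8339 had positive log2 fold changes and 11.0% were called. Of the 14 tested neighbours, PSCA and LYNX1 among them, 2 were called (14.3%). A joint shift of the cluster was not tested. THEM6, which lies next to LY6K in the annotation, rose from 15.09, 16.06 and 17.09 TPM to 17.58, 19.52 and 19.66 TPM (log2 fold change 0.25, edgeR adjusted p = 0.0202). The call of THEM6 was lost by edgeR without siCTRL replicate 1 (adjusted p = 0.0552), siMatrin3 replicate 2 (0.0749) or siMatrin3 replicate 3 (0.0863), in a range of 0.000226 to 0.123 over its alternatives. GSDMD, the pore-forming protein of pyroptosis, lay at the far end of the list and fell from 48.53, 51.08 and 47.42 TPM to 41.05, 40.88 and 39.06 TPM (log2 fold change -0.22, edgeR adjusted p = 0.00651), a call kept in all 17 alternatives.

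**Figure D3:**
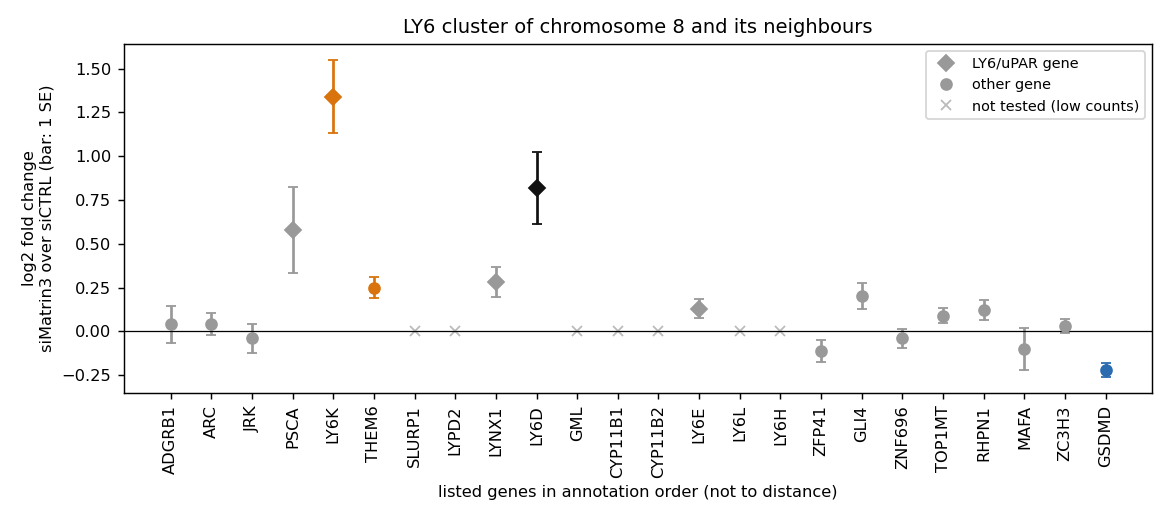
Log2 fold changes of listed genes of the chromosome 8 LY6 cluster and its neighbours in annotation order, evenly spaced and not to distance, siMatrin3 against siCTRL, with bars of 1 SE from edgeR, diamonds for LY6/uPAR genes, circles for other genes, crosses on the zero line for genes too low to test, and orange, blue and black for called higher, called lower and LY6D. LY6K at 1.34 and LY6D at 0.82 stand highest, while genes from ZFP41 to ZC3H3 lie between -0.11 and 0.20.

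The gene whose profile over the 6 libraries was most like that of LY6D, by Pearson correlation of log2 CPM (a gene's reads relative to the library total) among 9661 protein-coding genes averaging 5 TPM or more in 1 of the groups, was MCM4 (r = 0.9998), followed by KRT7 (0.9978), ARPC4 (0.9974), PFDN6 (0.9952) and RRP36 (0.9941). These are the highest of many values over 6 libraries that share a group difference and a low siCTRL replicate 1, and are given as a description. KRT7, a keratin of simple epithelia, had a log2 fold change of 0.44, and the other 4 had 0.12 to 0.25. Among the members the same correlation with LY6D was 0.91 for CD59, 0.81 for LY6E, 0.73 for LY6K, 0.07 for PLAUR, -0.11 for LYPD3 and -0.68 for LYPD6B.

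A gene total can hide a change of isoform, so the transcript length that RSEM averaged over each gene's transcripts was compared. Of the members other than LY6D, 5 had at least 50 expected counts in every library. By limma, 0 of these 5 were called for weighted length, nor did any reach an unadjusted p under 0.05. Over the 11984 genes with this test, 1 passed (0.00834%). In simulated lengths, limma recovered 79.5% of genes shifted by 0.4 on the log2 scale. Weighted length cannot show a switch between isoforms of similar length, so a change of splicing in these members was not tested. CD59 ranged from 1719 to 1767 bases in siCTRL and 1720 to 1776 bases in siMatrin3, and LYPD6B from 1194 to 1211 and 1202 to 1221 bases. LY6D was at 832, 843 and 827 bases and then 792, 834 and 822 bases. LY6K was left out of this test, with fewer than 50 expected counts in siCTRL replicate 2. Over 9 alternatives of the length test, among them minimums of 20 and 200 expected counts, 0 members were called. The weighted length of LY6K varied within siCTRL alone from 1424 to 2135 bases, so its TPM carry that additional spread. With effective length as an offset the log2 fold change of LY6K was 1.51.

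RefSeq promoter sequences (GRCh38.p14, 250 bases before to 50 after a start) were at hand for 5 members, LYPD1, LYPD3, LYPD6B, PLAUR and CD59, with 10 annotated starts. They were searched on both strands for the AP-1 motif TGANTCA, through which PLAUR is known to respond to growth signals. The GC box GGGCGG, a site of SP1-type factors, and the TATA motif TATAAA were searched likewise. The AP-1 motif occurred in 7.71% of all 35116 promoters and in those of the PLAUR start, 1 of 2 LYPD1 starts and 1 of 4 CD59 starts. The GC box occurred in 45.0% of all promoters and at the LYPD3 start, 1 of 2 LYPD6B starts, 1 of 2 LYPD1 starts and 2 of 4 CD59 starts. The TATA motif occurred in 11.5% of all promoters and, among the members, only at 1 of 2 LYPD6B starts. A match of letters is a description and says nothing of binding in these cells. Stretches of 30 bases are shown for PLAUR, as the textbook AP-1 case, and for CD59 and LYPD6B, the members called with a promoter entry, with the motif in capitals and each written along the strand of its gene.
PLAUR, chr19:43670337-43670366, minus strand: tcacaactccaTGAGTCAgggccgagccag
CD59, chr11:33736466-33736495, minus strand: gggcatcctgagGGGCGGggccggggggcg
LYPD6B, chr2:149118181-149118210, plus strand: gtgctggggctgGGGCGGctacatagctgt
The PLAUR motif begins 186 bases before its start. The CD59 motif begins 4 bases before 1 annotated start and 60 bases before another, so these starts share the same bases. The LYPD6B motif lies after its start, at -19 on this scale of bases before the start.

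Genes that work with the members or share a feature with them were then read as lists, chosen with earlier results of these data known. Of 140 such genes tested, 40 were called, 8 higher and 32 lower, or 28.6% against 11.0% of all genes. The count fell to 25 without siCTRL replicate 1, 22 without siCTRL replicate 3, 26 without siMatrin3 replicate 2 and 21 without siMatrin3 replicate 3.

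In the urokinase system, whose receptor is PLAUR, 5 of 15 tested genes fell and 0 rose (median log2 fold change -0.15), or 33.3% called against 11.0% of all genes. The members that fell were ITGB5, the beta chain of a vitronectin-binding integrin, at 56 ± 4.83 TPM in siCTRL and 46.5 ± 2.53 TPM in siMatrin3 (SD, n = 3, edgeR adjusted p = 0.00399), the collagen receptor MRC2, which partners the urokinase receptor, at -0.32 on the log2 scale, and SERPINE2, an inhibitor of urokinase, at -0.25. ITGB5 and MRC2 lost their calls with the effective length offset (edgeR adjusted p = 0.0695 and 0.0669) and with limma at both pseudocounts (from 0.0926 to 0.105). The integrin chains ITGAV and ITGA3, named after their values were seen, fell at -0.24 and -0.16. By edgeR ITGAV lost its call without siCTRL replicate 3 (adjusted p = 0.068), siMatrin3 replicate 2 (0.0699) or siMatrin3 replicate 3 (0.0667), and ITGA3 without siCTRL replicate 1 (0.124), siCTRL replicate 3 (0.0942), siMatrin3 replicate 2 (0.151) or siMatrin3 replicate 3 (0.18). The ligand itself did not pass: PLAU, which encodes urokinase, was at 50.33, 47.13 and 45.49 TPM and then 48.8, 39.71 and 40.11 TPM (log2 fold change -0.15, edgeR adjusted p = 0.271). PLAU was called without siMatrin3 replicate 1 (log2 fold change -0.26, edgeR adjusted p = 0.02), without replicate 1 of both groups (0.0174) and with the replicate block (0.0366), and its log2 fold change was -0.08 without siMatrin3 replicate 3, with adjusted p from 0.0174 to 0.631 over its alternatives. It was named for its role after its values were seen.

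CD59 acts beside other complement regulators, of which 3 of 6 tested fell and 0 rose (median -0.32), where 11.0% of all genes were called and 5.97% were lower. CR2, a complement receptor best known from B cells, averaged 3.33 ± 0.0379 TPM in siCTRL and 2.08 ± 0.186 TPM in siMatrin3 (edgeR adjusted p = 0.0015). Clusterin (CLU), a secreted inhibitor of the membrane attack complex, averaged 72.3 ± 3.27 and 54.4 ± 5.09 TPM (SD, n = 3, edgeR adjusted p = 0.00208). Both kept the call in all 17 alternatives. CFI, the protease factor I, averaged 0.31 TPM in siCTRL and lost its call in 11 of 16, among them the removal of each library apart from siMatrin3 replicate 2 (edgeR adjusted p from 0.0563 to 0.144). The membrane regulators CD46 and CD55, named for their role after the values were seen, had log2 fold changes of -0.04 (95% interval -0.13 to 0.04) and -0.08 (-0.21 to 0.05), with 65.7 and 48.3 TPM in siCTRL.

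For the GPI anchor itself, 3 of 30 assembly and remodelling genes fell and 0 rose, 10% against 11.0% of all genes, with a median of 0.04. PIGN, PIGB and PGAP1, which add to or trim the anchor, had log2 fold changes of -0.36, -0.33 and -0.27 and lost the call in 9, 12 and 11 of 17 alternatives. The removal of siCTRL replicate 1, siCTRL replicate 3, siMatrin3 replicate 2 or siMatrin3 replicate 3 ended each of these calls, as did siCTRL replicate 2 for PIGB and PGAP1 and siMatrin3 replicate 1 for PIGB (edgeR adjusted p from 0.0506 to 0.164). Of 28 other GPI-anchored proteins tested, 4 rose and 5 fell, or 32.1% called. NT5E, the adenosine-forming enzyme CD73, and CNTN1, a neural adhesion protein, fell at -0.98 and -1.01, and SEMA7A, a membrane semaphorin, rose by 0.53, with 6.88 ± 0.68 TPM in siCTRL and 9.74 ± 1.01 TPM in siMatrin3 (SD, n = 3, edgeR adjusted p = 0.00744), a call lost with limma at both pseudocounts (adjusted p = 0.057 and 0.0547).

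LY6D and LYPD3 mark stratified epithelium, so other genes of that tissue were listed. Of 30 listed, 12 were tested, and 3 rose and 1 fell, or 33.3% called against 11.0% of all genes. S100A2, a calcium-binding protein of basal keratinocytes, rose from 13.32, 12.25 and 14.76 TPM to 19.09, 19.17 and 18.43 TPM (log2 fold change 0.44, edgeR adjusted p = 0.0103). TRIM29 rose at 0.50, a call lost in 10 of 17 alternatives, and PERP, a protein of desmosomes, fell at -0.26, a call lost in 9. For TRIM29 these included each library apart from siMatrin3 replicate 2 (edgeR adjusted p from 0.0509 to 0.0803), and for PERP siCTRL replicate 1, siCTRL replicate 3, siMatrin3 replicate 1 and siMatrin3 replicate 3 (0.0582 to 0.0996). The other gene that rose was KRT13, a keratin of internal stratified linings, at 0.5, 0.25 and 0.75 TPM in siCTRL and 1.12, 2.07 and 2.21 TPM in siMatrin3 (2.47-fold, edgeR adjusted p = 0.0333), named after its values were seen. Its call was lost by edgeR without siCTRL replicate 1 (adjusted p = 0.0655), siMatrin3 replicate 2 (0.0842) or siMatrin3 replicate 3 (0.126), within a range of 6.69e-06 to 0.126 over its alternatives. Defining genes of the tissue were close to 0: KRT5, KRT14, TP63 and IVL each averaged under 0.1 TPM in both groups, and were named for their role after their values were seen. The summed level of the 30 genes was 479 to 512 TPM in siCTRL and 475 to 487 TPM in siMatrin3. PERP, SFN and CDH3 held most of that sum, averaging 172, 148 and 95.6 TPM in siCTRL. In siMatrin3 the 3 averaged 142, 150 and 96.6 TPM. SFN and CDH3 were named after their values were seen.

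LY6E is induced by interferon, and other interferon-stimulated genes had 10 of 26 lower and 0 higher (median -0.34), or 38.5% called against 11.0% of all genes, with IFIH1, IFITM3 and IRF7 at -0.54, -0.31 and -0.70, against 0.13 for LY6E. IRF7 overlapped in TPM between groups and lost its call in 3 of 17 alternatives. LYPD6B and its relatives act on some nicotinic receptors, and the list took the subunits of all of them. Of 7 tested subunits, 2 were lower and 0 higher, or 28.6% called. CHRNB1, the muscle beta chain, averaged 12 ± 0.237 TPM in siCTRL and 9.81 ± 0.411 TPM in siMatrin3 (SD, n = 3, edgeR adjusted p = 0.00807). With limma the adjusted p of CHRNB1 was 0.0542 and 0.051 at the larger and smaller pseudocount. CHRNA7 had -0.31, a call lost in 11 of 17 alternatives. Of 5 tested binding partners of LYPD3, of which 40.0% were called, the lectin LGALS3 and the integrin chain ITGB4 fell, at -0.20 and -0.17, the latter losing its call in 10 of 17 alternatives, and AGR2, a described ligand of LYPD3, did not exceed 0.02 TPM in any library and was named for its role. Calls ended by edgeR for CHRNA7 with each library left out apart from siMatrin3 replicate 3 (adjusted p from 0.0647 to 0.111), for ITGB4 with each apart from siCTRL replicate 2 (0.0632 to 0.145), and for LGALS3 without siCTRL replicate 3 (0.0809) or siMatrin3 replicate 3 (0.0834).

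**Figure D4:**
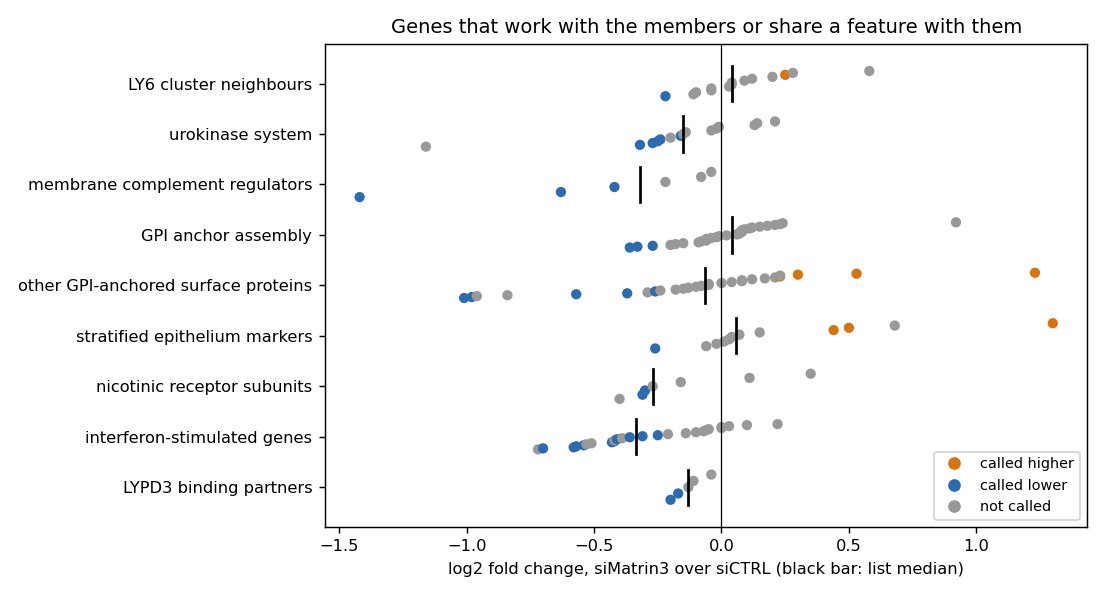
Log2 fold changes of the tested genes of 9 lists, siMatrin3 against siCTRL by edgeR, where each point is a gene, orange if called higher, blue if called lower and grey if not called, and the black bar is the median of the list. The interferon, complement and urokinase lists have medians of -0.34, -0.32 and -0.15, and GPI anchor assembly lies around 0.04.

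Across 17 alternatives of scaling, filter, tool, threshold and left-out library, 5 of the 6 tested members other than LY6D kept the sign of their log2 fold change. The stricter threshold reused the same fit, so the sign could not differ there. The log2 fold change of LY6D ran from 0.59 to 0.97, that of LY6K from 0.92 with limma on log2(TPM + 1) to 1.62 without replicate 1 of both groups, and that of LYPD6B from -0.66 to -0.51. CD59 ran from 0.17 to 0.25, LY6E from 0.09 to 0.18 and PLAUR from 0.05 to 0.20. LYPD3 took both signs, from -0.14 to 0.08.

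**Figure D5:**
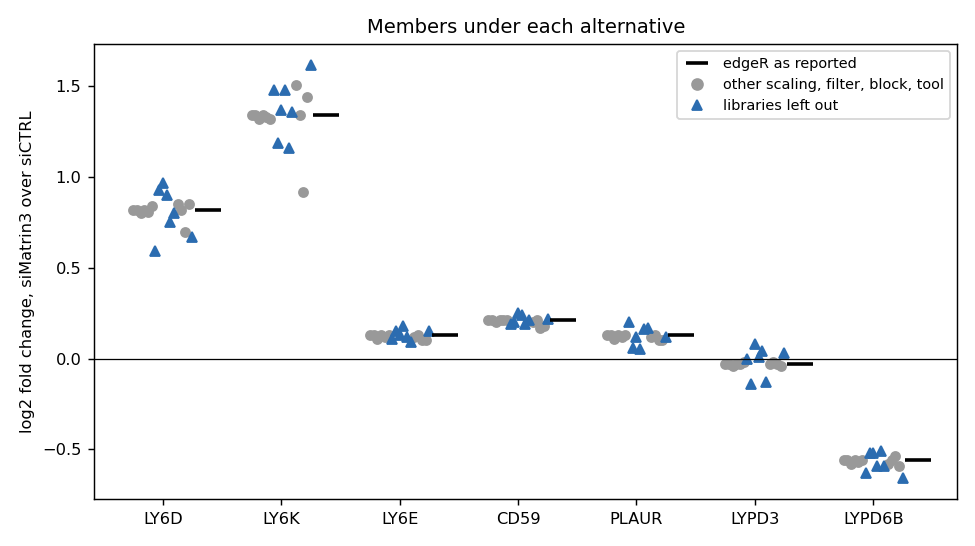
Log2 fold changes of the 7 tested members, siMatrin3 against siCTRL, as reported (black bars), with another scaling, filter, tool, offset or block (grey circles) and with libraries left out (blue triangles). LY6D stays between 0.59 and 0.97, and LYPD3 is the member that crosses 0.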

How the data were processed

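Poly(A) libraries from a strand-marking kit were sequenced from paired ends. Per the submitters' processing notes, the authors trimmed with cutadapt, aligned to hg19 with STAR 2.5.1 and quantified with RSEM. The paper's methods name another version of STAR. The strand setting of the counting is not given in the sources used here. For each library the authors deposited RSEM's expected counts (estimated counts), its TPM and its weighted transcript lengths in bases, and the FPKM column was not used. Symbols (68.7% of genes) and exon overlaps came from a GENCODE annotation of GRCh38, another build, so gene coordinates are not printed.

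Rounded expected counts went through filterByExpr and TMM scaling into edgeR 4.0.16, run in R 4.3.3 as a two-sided quasi-likelihood test of siMatrin3 against siCTRL, and p-values were adjusted by Benjamini-Hochberg over 16786 genes and called under 0.05. Length was tested with limma 3.58.1 on log2 bases. P-values set the difference between the groups against the spread between these libraries, estimated partly from all genes together. They do not cover other siRNA reagents or cell lines. Counts were simulated for this comparison over 16602 genes, of which only a small part was changed. There edgeR recovered 86.7% of genes changed 2-fold and 61% of those changed 1.3-fold. It also called 17 unchanged genes, to be read against the small part changed and not against all 16602. The share of genes changed in the simulation was below the share called in the data.

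The members and lists were chosen with earlier results of these data known. Named genes were MATR3, the members, family genes of at least 1 TPM, up to 3 called genes of each list with the smallest p, and the 5 genes most correlated with LY6D. Markers of other cell types were named from their lists, and genes named outside the rule for their role or after their values were seen are marked so beside their values.

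The same results were recomputed with RLE or upper quartile scaling, without the filter or with 1 CPM in 3 libraries, with the replicate number as a block, without each library, with effective length as an offset, by DESeq2 1.42.0, by limma on log2(TPM + 1) and log2(TPM + 0.1), and at an adjusted p under 0.01. The stricter threshold reused the reported edgeR fit, so only calls, not log2 fold changes, could differ there. Leaving out replicate 1 of both groups was added once the data had been seen.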

Additional observations from a re-analysis of the deposited data

How the results depend on the processing

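MATR3 kept its direction and its call in 17 alternatives. The count of called members other than LY6D was 3 and became 2 in 8 of 17 alternatives, those in which CD59 lost its call, and 4 with the replicate block. The log2 fold change of LY6D, 0.82 as reported, ran from 0.59 to 0.97 over its alternatives. The pooled SD of LY6D between replicates was 0.34 in log2 CPM. The single call among the other family genes became 2 with no filter and 2 with the replicate block, and 0 with the effective length offset, DESeq2, either limma setting, an adjusted p under 0.01 or without replicate 1 of both groups, and 0 with any single library left out. The 40 partner genes called became 16 with the offset, 13 with limma at either pseudocount, 16 at an adjusted p under 0.01, 26 without replicate 1 of both groups and 21 to 33 with single libraries left out, but 56 with no filter, and the cause was not tested. Genes that were not called changed sign around 0: LYPD3 ran from -0.14 to 0.08 with single libraries left out, and was positive without siCTRL replicate 3 or siMatrin3 replicate 1 or 2 (0.08, 0.01 and 0.04) and at 0.03 without replicate 1 of both groups. LY6G5B ran from -0.05 to 0.14 and was at -0.05 without siCTRL replicate 1 and -0.06 without replicate 1 of both groups. LYPD5 ran from -0.02 to 0.06 and was at -0.02 without siMatrin3 replicate 2, -0.06 with the offset, and -0.05 and -0.07 with limma at the larger and smaller pseudocount. Whether replicate numbers pair the samples cannot be settled from 3 libraries per group. Same-numbered libraries had correlations of deviations of 0.177, 0.0896 and 7.21e-05. Differently numbered libraries had correlations from -0.145 to 0.0641. With the replicate block, 4 members other than LY6D, 2 other family genes and 53 partner genes were called (PLAUR at an edgeR adjusted p of 0.0487, within 0.0487 to 0.683 over its alternatives). MATR3 stood at -0.93 and LY6D at 0.84 with the block, and 0 members were called for weighted length. Depth limits LYPD1, LY6K and LY6D most.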
